A study of Botryllus schlosseri with 42 samples.

Results

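Described here are 111 of 50106 contigs of the Botryllus schlosseri transcript assembly whose transcripts were higher in fertile than in infertile colonies at the start, in the middle and at the end of the blastogenic cycle. They were chosen from the measured values. For each contig the fertile mean plus 5 was divided by the infertile mean plus 5, and this ratio had to be at least 4 at each of stages A1, B1, C2 and D. The fertile mean at C2 also had to exceed 25% of the fertile mean at B1. Without this last limit 119 contigs would have been chosen. A larger set described further on had a C2 level at or below that share and was chosen with no limit on the ratio at C2 or D. Of 33 contigs that the study singled out for their homologs, 7 met the limits and were left out with the rest of that list. The values at A1, B1, C2 and D are therefore given as a description with no test, and the tests use stages A2, B2 and C1, whose libraries took no part in the choice. The cycle is one continuous process in the same colonies, so these 3 stages are not a separate experiment.

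Whole colonies raised in the laboratory were sampled at 7 stages, named A1 and A2, B1 and B2, C1 and C2, and D, and polyA RNA of 3 fertile and 3 infertile colonies or pools per stage was sequenced, 42 libraries in all. The fertile group, which the labels call hermaphrodite, was made up of SB801, SB841 and a mix of SB802a, SB804 and SB722. The infertile group was made up of SB802d, SB-BB-001 and a mix of SB831, SB645, SB714, SB841 and SB842. SB841 thus appears in both groups, 1 library per group and stage is a pool of genotypes, and fertility cannot be told apart from genotype for most colonies. Age is not stated in the labels. The deposited values are group means of normalized counts, and the values of the single libraries were recovered from them. Libraries are numbered 1 to 3 within a group and stage by falling size factor, so that library 1 at A1 and library 1 at A2 need not be the same colony. Library totals ranged from 4309044 to 15670143 read pairs over the contigs whose library values were recovered. Contigs with group means above 60000 were not resolved and are missing from these totals, so the full depth was higher. All 42 library values were recovered for 110 of the 111 contigs.

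Botryllus schlosseri is a colonial ascidian in which adult zooids, primary buds and secondary buds of a colony develop side by side. At the end of each cycle the zooids regress in a process called takeover, and the primary buds become the new zooids. In a fertile colony, germ cells enter the young buds and mature over successive cycles into testes and eggs, so a colony holds gonads of more than one age at any stage. In an RNA measurement of a whole colony, fewer cells of a type and less RNA per cell cannot be told apart.

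A homolog from any of 5 species (human, Ciona, mouse, zebrafish or fly) is given by the study for 60 of the 111 contigs, a human one for 45 and a Ciona but no human one for 15. For 51 contigs none is named, of which 29 are in the study's lists without a homolog and 22 are in none of the lists used here, so that a missing name does not show a missing homolog. The homologs were listed by the study for contigs with low p-values in these same samples, so the names are a selected set. No sequence of the contigs is shown, as none was among the sources used here. Contigs named after the same protein may be parts or copies of 1 gene and may share reads, and their separate values are uncertain to that extent.

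Some libraries stood apart from the rest. In fertile D library 3, 757 of 761 contigs that differed by at least 10-fold between the other 2 fertile D libraries had a value between them. Values between the other 2 are also what a mixture of those libraries would give, and whether library 3 is independent of them was not tested. Its median was 35.7% of library 1 over 330 contigs high in that library and 62.5% of library 2 over 431 contigs high there. For fertile D libraries 1 and 2, each set against the other 2 in the same way, it was 0 of 69 and 4 of 251 contigs. In the 39 libraries outside the fertile D group the share of such contigs in between was 48.8% to 77.3%. Of the 111 contigs, 93 had fertile D library 3 between the other 2. In the infertile group, library 1 of B2, of C1 and of C2 held 3 transcripts that the study located in testis (otoancorin, tetraspanin-8 and tsk-1) at summed values of 1294, 2264 and 2365 normalized counts. The other 18 infertile libraries held 17.2 to 385. The fertile group also had 1 library per stage in which many of the contigs were highest, as described further on.

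At stage A1 the 111 contigs had a median fertile mean of 273 normalized counts and a median infertile mean of 7.93, and a median ratio of 18.6. The ratio was lowest in the middle of the cycle. Its median was 12.6 at A2 and 14.8 at B1, 5.73 at B2 and 4.77 at C1, and 8.43 at C2 before 6.09 at D. The median fertile mean went from 201 (A2) and 250 (B1) to 165 (B2) and 132 (C1), and from 195 (C2) to 144 (D). The median infertile mean was 6.94 at A2 and 9.44 at B1, 19.8 at B2 and 14.6 at C1, and 14.3 at C2 with 11.4 at D. The low ratios at B2 and C1 thus came with lower fertile and higher infertile medians. The choice required a ratio of at least 4 at A1, B1, C2 and D only, which by itself favors lower ratios at the other stages. How much of this course follows from the choice was not tested. Each stage was normalized on its own, so levels set side by side between stages rest on that scaling.

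**Figure D1:**
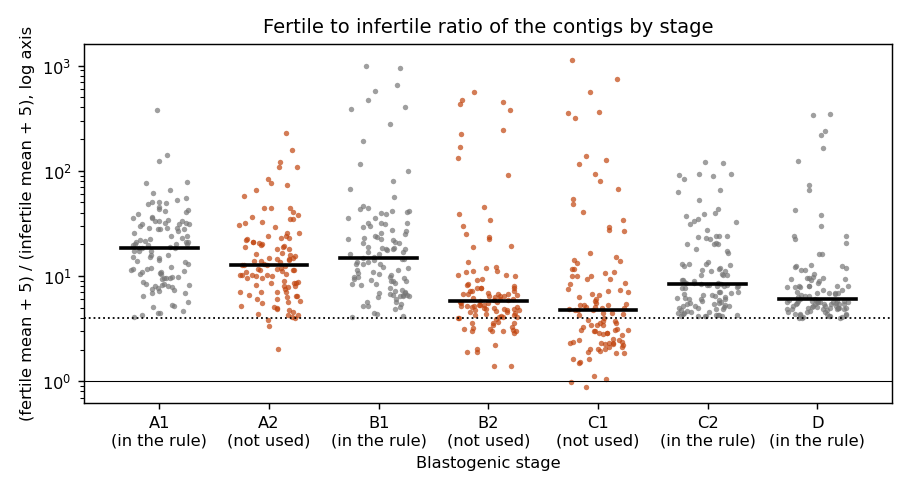
Ratio of the fertile mean plus 5 to the infertile mean plus 5 (log axis) for each of the 111 contigs at the 7 stages. Gray points are stages used to choose the contigs, where a ratio of at least 4 was required. Orange points are stages not used, black bars the medians, the dotted line a ratio of 4 and the thin line a ratio of 1. The median is 18.6 at A1 and 4.77 at C1.

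At the stages that were not used, a ratio of at least 4 was found for 108 of the 111 contigs at A2, where 2.86% of the contigs whose mean over both groups was 10 normalized counts or more reached it. At B2 it was found for 88, against 2.78% of all contigs, and at C1 for 61, against 1.65%. At C1 2 of the contigs had a ratio below 1. At the 4 stages of the choice all 111 reached a ratio of 4 by construction, where 2.9%, 3.02%, 1.73% and 1.28% of all contigs did so at A1, B1, C2 and D. Over the 7 stages, 49 contigs had a ratio of at least 4 in every one, 48 in 6 and 14 in 5. The choice fixed 4 of these stages, and no share of all contigs is given for these 3 counts.

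Separation of the libraries is a further measure, which takes no account of the size of a difference. All 3 fertile libraries lay above all 3 infertile libraries for 72 contigs at A2, against 6.93% of all contigs. This held for 46 of 110 contigs at B2, against 4.89%, and for 41 of 110 at C1, against 4.39%. At the stages of the choice it held for 73 contigs at A1 (7.75% of all), 83 of 110 at B1 (8.04%), 79 at C2 (7.21%) and 73 at D (10.9%). For 19 contigs the groups were separate at all 7 stages, and for 15 they overlapped at all 7. The share of all contigs is not given for these counts. The choice by means at A1, B1, C2 and D also favors separation there. Without the infertile library 1 that was rich in testis transcripts, the count was 74 at B2 (10.1% of all) and 79 at C1 (12.4%). Without fertile D library 3 it remained at 73 at D, where 12.5% of all contigs were then separate.

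Fewer of the contigs passed a test at a single stage. At A2, limma on log2(normalized count + 1) called 0 of 110 contigs at a 10% FDR, and 0% of all 37379 contigs tested. The median log2 difference of the contigs was 4.21, and 75 of the 110 were higher with an unadjusted p under 0.05, compared with 2320 contigs of either direction among all tested. The voom method also called 0. Without fertile A2 library 3, 26 of the contigs were called, among 195 contigs that were higher over the whole table. At C1, 0 of 101 contigs and 0% of all 38272 were called, with a median log2 difference of 2.59 and an unadjusted p under 0.05 for 50, against 1599 of all contigs. The voom method called 0 at C1 as well.

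At B2 limma called 6 of 105 contigs higher in fertile colonies, and these were 6 of only 8 contigs called higher in the whole table, or 0.0212% of 37749. The median log2 difference of the 105 was 2.71, and 54 were higher with an unadjusted p under 0.05. The 6 contigs were 3 with a Ciona homolog of unknown function called LOC100177400, the homolog of plasma kallikrein and 2 with no homolog named. All 6 calls were lost when any 1 of the fertile B2 libraries was left out. Without infertile library 1, 9 of the contigs were called, among 121 contigs that were higher over the whole table. The voom method called 0 of the contigs at B2.

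When the 18 libraries of A2, B2 and C1 were fitted together, 75 of 108 contigs were higher in fertile colonies by the mean of the 3 stage differences at a 10% FDR in limma. None was lower. Of all 38060 contigs tested, 3.02% were higher and 1.45% lower. The median log2 difference of the 108 was 3.19. The same genotypes recur at the 3 stages. The recovered libraries were not matched to genotypes and entered as independent, so these p-values are too small to that extent. Leaving out stage A2 left 10 of the contigs called, among 15 contigs higher in the whole table. Leaving out B2 left 24 among 35, and leaving out C1 left 50 among 409. Leaving out 1 library gave 55 to 80, with 424 to 1405 contigs higher in the whole table. Leaving out the 3 fertile libraries that dominate many of the contigs (library 1 of A2, library 3 of B2 and library 1 of C1), a setting chosen after seeing the data, left 15 of 93 called, each of them also called with all 18. In that setting 30 of all 37835 contigs tested were higher and 3 lower. The median log2 difference of the 93 was then 2.67.

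No change between stages passed a test. The difference between fertile and infertile colonies was smaller at B2 than at A2 by a median of 1.25 on the log2 scale and smaller at C1 than at A2 by a median of 1.21. In limma at a 10% FDR 0 of 108 contigs and 0% of all 38060 passed for either contrast or for C1 against B2, in either direction. An unadjusted p under 0.05 was found for 231, 217 and 153 contigs of the whole table in the 3 contrasts. Fertile libraries of B2 against A2, C1 against B2 and C1 against A2 likewise gave 0 calls among the 108 contigs and 0% of all, with 707, 701 and 860 contigs of the whole table at an unadjusted p under 0.05.

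The most abundant of the contigs formed a family of 5 with the same Ciona homolog, the uncharacterized protein LOC100177400. Their fertile means were many times higher from B1 to C2 than at A1 and A2. Of this course only B2 and C1 against A2 were tested, and neither contrast passed in any of the 4 contigs tested (for Bot_rep_c50316 a log2 difference of 4.18 at B2, limma adjusted p = 1). The contig Bot_rep_c50316 had 672, 510 and 141 normalized counts in the fertile A1 libraries and 8.84, 5.48 and 18.5 in the infertile ones. At A2 it had 1180, 1501 and 16.2 against 4.98, 5.08 and 0, and at B1 11608, 7014 and 6351 against 27.8, 4.14 and 6.49. Neither stage showed overlap between the groups, although fertile A2 library 3 was far below the other 2.

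At B2 Bot_rep_c50316 had 6897, 4838 and 7947 normalized counts in fertile and 8.32, 15.1 and 5.17 in infertile libraries. This was the narrowest spread it showed among the 3 tested stages, and its log2 difference at B2 was 9.36 (SE 0.49, limma adjusted p = 0.00858). At C1 the fertile values were 2374, 10095 and 11557 and the infertile ones 44.4, 6.97 and 0. At C2 they were 6086, 6701 and 6707 against 159, 37 and 2.79, and at D 1544, 3680 and 2638 against 14.3, 4.11 and 2.29. The groups did not overlap at any of the 7 stages.

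The other contigs of the family followed the same course. CAP3_round1_contig_7081 had 51044, 15183 and 21006 normalized counts in fertile B2 libraries and 34.9, 94.5 and 10.3 in infertile ones. Its log2 difference at B2 was 9.55 (SE 0.83, limma adjusted p = 0.0446). Bot_rep_c52197 had 2970, 2691 and 3638 at B2 against 15, 5.67 and 2.59, with a log2 difference of 8.73 (SE 0.61, limma adjusted p = 0.0211). Bot_rep_c47465 had 32136, 12037 and 15202 against 49.9, 58.6 and 2.59, with a difference of 9.67 (SE 1.08) that missed the threshold at B2 alone (limma adjusted p = 0.151). In each of the 4 the groups were separate at all 7 stages, and each was called in the fit of 18 libraries, with a median log2 difference of 8.49. All 4 were also called without the 3 dominating fertile libraries.

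CAP3_round1_contig_3261 was the highest of the 111 contigs. The authors' fertile mean was 4102 at A1 and 8911 at A2. It stood at 67043 at B1, 85457 at B2 and 136992 at C1, then at 53456 (C2) and 41465 (D), while the infertile mean stayed between 68.3 and 442. Its fertile library values at B1, B2 and C1 were not recovered, because group means above 60000 were not resolved into libraries. At A2 the fertile values were 13211, 13374 and 148 against 56.4, 81.2 and 67.1 in infertile colonies. As in the rest of the family, the third fertile A2 library was low and still above the infertile ones.

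Of the contigs without a named homolog, Bot_rep_c49193 and Bot_rep_c48084 had a similar course, while the median fertile mean of all 51 was 193 at A1 and 190 at B1. Bot_rep_c49193 had 162, 192 and 35.1 normalized counts in fertile A1 libraries, 360, 375 and 4.62 at A2 and 3457, 2451 and 1146 at B1. Its infertile libraries at these 3 stages held 0 to 3.38. At B2 the fertile values were 3513, 1048 and 1818 and the infertile ones 0, 1.89 and 0, a log2 difference of 10.37 (SE 0.72, limma adjusted p = 0.0211) whose size depends on the pseudocount of 1. The fertile values were 365, 3280 and 5529 at C1 and 705, 1386 and 1184 at D, and the infertile libraries of the last 3 stages held 0 to 27.7.

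Bot_rep_c48084 was low at A1, with 55.1, 56.4 and 21.1 normalized counts in fertile and 3.54, 0 and 0 in infertile libraries. At B1 it had 2315, 683 and 1176 against 0, 0 and 0, at least 241-fold higher when 3 read pairs per infertile library are taken as the floor. At B2 it had 1119, 989 and 739 against 1.66, 0 and 5.17, with a log2 difference of 8.52 (SE 0.76, limma adjusted p = 0.0446). Both contigs were separate between the groups at all 7 stages. A further contig with no homolog named, Bot_c22849, chosen after its values were seen, had 38.1, 389 and 1300 at C1 in fertile libraries and 0 in each infertile one, at least 118-fold higher.

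**Figure D2:**
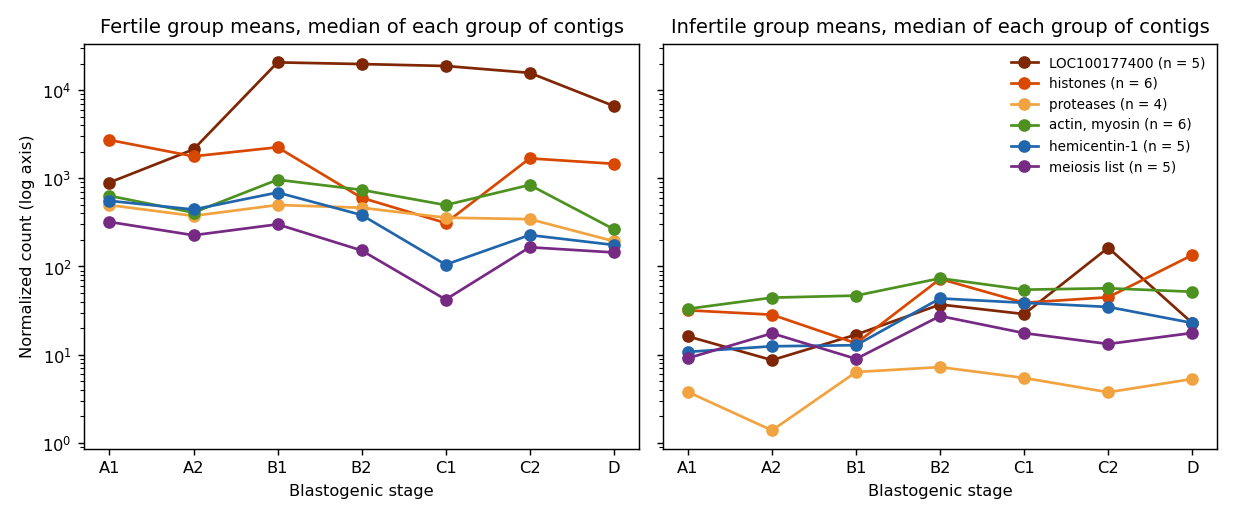
Median over the contigs of each group of the fertile group mean (left) and of the infertile group mean (right), in normalized counts on a log axis, at the 7 stages. The LOC100177400 contigs are at 897 at A1 and 20670 at B1 in fertile colonies, while the meiosis list is lowest at C1, at 42.2.

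Histones are the proteins on which DNA is wound, and 6 of the 111 contigs had histone homologs. All 6 were higher in fertile colonies in the fit of 18 libraries, with a median log2 difference of 4.95, and 2 of the 6 were called without the 3 dominating fertile libraries. The function lists were applied only to the 4967 contigs listed by the study, these 6 among them. Of those contigs, 13 of 17 tested in the chromatin list were higher and 0 lower. Of the 6, 4 carried the name histone H1.0, a linker histone that binds DNA between nucleosomes. Their reads may be shared.

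The most abundant, Bot_rep_c34825, had 12064, 2887 and 4628 normalized counts in fertile A1 libraries and 3.54, 9.13 and 24.7 in infertile ones. At B2 it had 6170, 1003 and 1525 against 1174, 18.9 and 2.59, and at C1 388, 121 and 680 against 627, 4.18 and 0. The groups overlapped at B2 and C1 through infertile library 1, the library that held most testis transcripts at both stages. Its mean log2 difference over A2, B2 and C1 was 6.07 (SE 1.19, limma adjusted p = 0.0236).

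Bot_rep_c48328 had 7154, 4201 and 2289 normalized counts at A1 against 26.5, 32.9 and 35, and 662, 225 and 312 at C1 against 75.4, 8.36 and 4.3. It overlapped between the groups only at B2, where fertile library 2 had 141 and infertile library 1 had 148, and its mean log2 difference was 5.03 (SE 0.68, limma adjusted p = 0.00423). CAP3_round1_contig_8105 had 375, 358 and 165 at B2 against 421, 3.78 and 10.3, so that its groups overlapped there. Its values at D were 766, 2510 and 1723 against 80.5, 779 and 0, with overlap there too, and its mean log2 difference was 4.52 (SE 0.96, limma adjusted p = 0.0307). The core histone H2B, CAP3_round1_contig_1301, was separate at all 7 stages, with 175, 49 and 46.8 at B2 against 8.32, 0 and 2.59. The variant histone H2A.Z, Bot_rep_c35712, which replaces core H2A at gene starts in many species, was likewise separate at all 7 stages, with 412, 111 and 117 at C1 against 52.5, 34.8 and 6.46.

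Meiosis reduces the chromosome set of the germ cell after DNA breaks have been made and repaired between paired chromosomes. The meiosis and cell cycle list held 5 of the 111 contigs, and all 5 were higher in fertile colonies in the fit of 18 libraries, with a median log2 difference of 2.59. Over the contigs listed by the study, 9 of 29 tested contigs of the list were higher and 0 lower. Without the 3 dominating fertile libraries 0 of the 5 were called, with a median log2 difference of 2.61. All 5 had a ratio of at least 4 at A2, 2 did at B2 and 0 at C1.

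REC8, the cohesin that holds sister chromatids together in meiosis, was the homolog of Bot_c5114. It had 1989, 1344 and 1019 normalized counts at A1 against 12.4, 38.3 and 65.8 and 1487, 787 and 416 at A2 against 64.7, 10.2 and 82. At B2 it had 1269, 157 and 212 against 293, 71.8 and 77.6, and at C1 231, 106 and 173 against 152, 29.3 and 32.3, with overlap at both. At C2 the values were 579, 1113 and 438 against 86.5, 40.7 and 22.4, separate again. The mean log2 difference was 2.52 (SE 0.54, limma adjusted p = 0.0307).

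SYCP3, an axial protein of the synaptonemal complex that joins paired chromosomes, was the homolog of 3 contigs. CAP3_round1_contig_7602 had 930, 555 and 386 normalized counts at A2 against 36.5, 27.1 and 22.4, 1299, 125 and 145 at B2 against 94.8, 62.4 and 46.5, and 135, 72.6 and 65 at C1 against 74, 19.5 and 19.4. Only at C1 did its groups overlap, and its mean log2 difference was 2.66 (SE 0.44, limma adjusted p = 0.013). Bot_rep_c51033 had 346, 178 and 155 at A2 against 18.3, 6.77 and 27.3, and 53.6, 33.9 and 39 at C1 against 25.6, 9.75 and 6.46. It overlapped at B2 alone, where fertile library 2 had 31.3 and infertile library 1 had 34.9, and its mean log2 difference was 2.37 (SE 0.39, limma adjusted p = 0.0135). SPO11, the enzyme that makes the DNA breaks, was the homolog of Bot_c23297, with 282, 152 and 104 at A2 against 8.3, 5.08 and 9.94 and a mean log2 difference of 2.78 (SE 0.46, limma adjusted p = 0.0133).

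The names of 3 further contigs point to meiosis although the list did not hold them, and they were picked after names and values had been seen. HORMAD2, a protein of unpaired chromosome axes in mice, SPATA22, needed for repair of meiotic breaks in mice, and Speedy A, a partner of cell cycle kinases, were all called in the fit of 18 libraries. Their median log2 difference was 3.54, and 0 of the 3 were called without the 3 dominating fertile libraries. SPATA22, CAP3_round1_contig_8035, was the one contig of the sperm list, of which 44 of 108 tested contigs were higher and 0 lower over the contigs listed by the study. It had 415, 63.5 and 150 normalized counts at A2 against 0, 25.4 and 4.97, and 87.5, 0 and 73.7 at C1 against 20.2, 1.39 and 0, with overlap at C1. Its mean log2 difference was 3.82 (SE 0.99, limma adjusted p = 0.0649).

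Boule is an RNA-binding protein of the DAZ family, needed for male meiosis in flies, and the contig CAP3_round1_contig_4110 was its homolog. It had 682, 392 and 326 normalized counts at A2 against 48.1, 15.2 and 44.7, 370, 123 and 289 at B2 against 99.8, 47.3 and 41.4, and 333, 145 and 117 at C1 against 72.7, 18.1 and 15.1. The groups were separate at all 7 stages. The mean log2 difference was 2.83 (SE 0.38, limma adjusted p = 0.00423) and 2.53 (SE 0.44, limma adjusted p = 0.0999) without the 3 dominating fertile libraries. It was the one contig of the germline RNA list, of which 3 of 15 tested were higher over the contigs listed by the study and 0 lower.

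**Figure D3:**
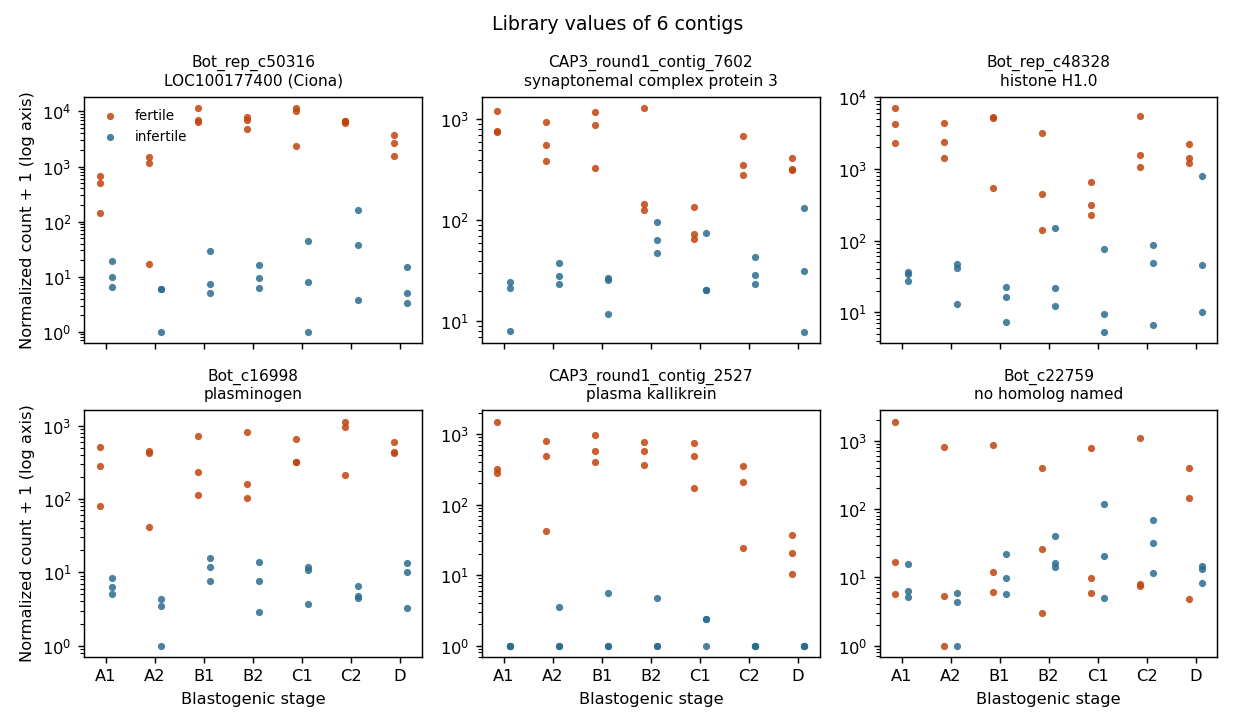
Normalized count plus 1 (log axis) in each of the 3 fertile (orange) and 3 infertile (blue) libraries at the 7 stages for 6 contigs. In Bot_rep_c50316 the groups are separate throughout, in the SYCP3 contig CAP3_round1_contig_7602 they overlap at C1, and in Bot_c22759 they overlap at all 7 stages.

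Proteases were the homologs of 4 of the contigs, all higher in the fit of 18 libraries with a median log2 difference of 4.79. Over the contigs listed by the study, 24 of 120 tested contigs of the proteases list were higher and 1 lower. The clearest was the homolog of plasma kallikrein, a serine protease of mammalian blood, CAP3_round1_contig_2527. It had 486, 807 and 41.6 normalized counts at A2 against 0, 0 and 2.49, 569, 772 and 364 at B2 against 0, 3.78 and 0, and 759, 486 and 169 at C1 against 1.35, 1.39 and 0. Transcripts were all but missing from infertile libraries at every stage, with 0 in all 3 at A1, C2 and D. At A1 it was at least 125-fold higher in fertile colonies and at D, where the fertile values were 36.5, 9.47 and 19.9, at least 3.58-fold. The mean log2 difference of 7.87 (SE 0.58, limma adjusted p = 2.65e-05) depends on the pseudocount of 1.

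Plasminogen is the precursor of plasmin, which cleaves fibrin and matrix proteins in mammals, and Bot_c16998 was its homolog. Its fertile values were of the same order early and late in the cycle. They were 515, 277 and 79.7 normalized counts at A1, 424, 40.2 and 452 at A2, 113, 717 and 235 at B1 and 102, 159 and 818 at B2. At C1 they were 664, 314 and 316, at C2 209, 1134 and 943 and at D 589, 428 and 432. The infertile libraries ranged from 0 to 14.5 over the 7 stages and never overlapped the fertile ones, and the mean log2 difference was 5.76 (SE 0.58, limma adjusted p = 0.000242).

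Brain-specific serine protease 4, a secreted tryptase-like enzyme, was the homolog of CAP3_round1_contig_5990. It behaved otherwise, with 2034, 743 and 171 normalized counts at A2 against 59.7, 15.2 and 67.1 but 241, 99.2 and 511 at C1 against 300, 8.36 and 60.3, where the groups overlapped. Its mean log2 difference was 3.17 (SE 0.76, limma adjusted p = 0.0475). Of the 4 proteases, kallikrein and plasminogen were called without the 3 dominating fertile libraries.

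Extracellular matrix, egg coat and adhesion proteins were the homologs of 9 contigs, of which 5 were higher in the fit of 18 libraries and 4 did not pass. Without the 3 dominating fertile libraries 1 of 8 was called. Over the contigs listed by the study, 23 of 179 tested contigs of this list were higher and 8 lower. Hemicentin-1, a large matrix protein of the immunoglobulin superfamily, was named for 5 of the 9, and 4 of these were called, or 1 of 4 tested without those libraries. Their reads may be shared. CAP3_round1_contig_1394 had 1973, 1080 and 409 normalized counts at A2 against 56.4, 8.46 and 74.6, 2009, 357 and 871 at B2 against 281, 47.3 and 82.7, and 247, 131 and 416 at C1 against 326, 20.9 and 21.5. The groups overlapped at C1 alone, through infertile library 1, and the mean log2 difference was 3.34 (SE 0.63, limma adjusted p = 0.0204).

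The other abundant members of the matrix list were less even among the fertile libraries. Bot_rep_c56124, with the homologs SNED1 in human and the transmembrane protein Vc16 in Ciona, had 1374, 233 and 76.2 normalized counts at A2 against 284, 0 and 4.97 and 102, 178 and 1311 at B2 against 271, 5.67 and 12.9. The groups overlapped at all 7 stages, and the highest infertile library of each stage held 214 to 376. Its mean log2 difference of 3.82 (SE 1.18) did not pass (limma adjusted p = 0.11). Bot_rep_c43515, the homolog of neuronal pentraxin-2, a secreted protein of synapses in mammals, had 1183, 0 and 2.31 at A2 against 0, 3.38 and 0, 2690, 0 and 464 at B2 against 0, 3.78 and 0, and 511, 2.42 and 13 at C1 against 0, 157 and 0. It overlapped at all 7 stages and did not pass, with a mean log2 difference of 3.90 (SE 1.74, limma adjusted p = 0.255).

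Actin and myosin, the proteins of contraction and of the cell cortex, were the homologs of 6 contigs. They were grouped by name, as none of the function lists held them, so no count over all actin and myosin contigs is given. All 6 were higher in the fit of 18 libraries, with a median log2 difference of 2.91. In that fit 75 of the 108 chosen contigs tested were higher, and 3.02% of all contigs. Whether actin and myosin contigs as a class were higher was therefore not tested. Without the 3 dominating fertile libraries 0 of the 6 were called. The cytoplasmic actin contig Bot_rep_c56546 was separate at all 7 stages, with 292, 227 and 265 normalized counts at A2 against 16.6, 11.8 and 29.8 and 137, 116 and 108 at C1 against 68.7, 9.75 and 10.8. Its mean log2 difference was 2.98 (SE 0.49, limma adjusted p = 0.0135). By contrast the smooth muscle actin contig Bot_rep_c53145 and the myosin light chain contig Bot_c14411, both chosen after their values were seen, varied widely among fertile libraries. At B2 the actin contig had 45, 3898 and 2889 against 83.2, 62.4 and 38.8, and the myosin contig 1.67, 780 and 489 against 8.32, 0 and 5.17. The same fertile B2 library was low in both, and the groups overlapped.

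Transporters were the homologs of 3 contigs, all higher in the fit of 18 libraries with a median log2 difference of 3.83. In that fit 16 of 92 tested contigs of the transporters and channels list were higher over the contigs listed by the study and 2 lower. Without the 3 dominating fertile libraries 0 of the 3 were called. Choline transporter-like protein 1, which carries the lipid precursor choline across membranes, was named for both Bot_c25570 and Bot_rep_c35989. Bot_c25570 had 277, 227 and 76.2 normalized counts at A2 against 3.32, 0 and 4.97, and 52.2, 16.9 and 56.3 at C1 against 41.7, 1.39 and 2.15, where the groups overlapped (mean log2 difference 4.14, SE 0.78, limma adjusted p = 0.0207). Bot_rep_c35989 had 149, 84.7 and 9.23 at A2 against 6.64, 0 and 0 and a mean log2 difference of 2.87 (SE 0.70, limma adjusted p = 0.0518). Aquaporin-8, a water channel, was the homolog of Bot_c7372, which had 125, 6.35 and 0 at A2 against 3.32, 0 and 0 and 87.5, 19.4 and 43.3 at C1 against 1.35, 0 and 0 (mean log2 difference 3.83, SE 0.84, limma adjusted p = 0.0347). Its groups overlapped at A2 and were separate at C1.

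The steroid, retinoid and xenobiotic list caught 2 of the contigs through the word sulfotransferase, and neither is a steroid enzyme by name. Over the contigs listed by the study, 17 of 78 tested contigs of that list were higher and 0 lower. CAP3_round1_contig_1042, the homolog of an enzyme that adds sulfate to heparan sulfate chains, had 179, 114 and 99.3 normalized counts at A2 against 4.98, 6.77 and 2.49 and 35.3, 31.4 and 60.7 at C1 against 6.73, 13.9 and 10.8. Its groups were separate except at B2, and its mean log2 difference was 2.82 (SE 0.39, limma adjusted p = 0.0053). Bot_c22330, named after a carbohydrate sulfotransferase in Ciona, had 451, 6.35 and 11.5 at A2 against 0 in each infertile library, at least 26.8-fold higher by the mean, but 0, 13.7 and 316 at B2 against 0, 79.4 and 0. It did not pass, with a mean log2 difference of 4.04 (SE 1.37, limma adjusted p = 0.139). None of the 111 contigs belonged to the lists of lipid uptake and transport or of the ubiquitin pathway. Of these lists 17 of 57 and 19 of 87 tested contigs were higher over the contigs listed by the study, with 0 and 2 lower.

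The contigs differed in how evenly the fertile libraries shared the reads. In 63 of the 111, no stage from A1 to C2 had 1 fertile library with over 80% of the fertile total. Of these 63, 45 had a homolog, 19 were separate between groups at all 7 stages and 60 of 62 tested were called in the fit of 18 libraries. In the other 48 contigs 1 library exceeded 80% at 1 or more of these 6 stages, and 15 of the 48 had a homolog and 15 of 46 tested were called. At 4 to 6 of the stages this was so for 28 contigs, of which 3 of 26 tested were called, and at all 6 for 12 contigs, of which 2 of 11 tested were called. The libraries of A2, B2 and C1 enter both the share and the fit, and 1 dominant library widens the spread within the fertile group. Fewer calls in such contigs are therefore built into the test. Over all contigs a share above 80% was found in 2.34% to 6.62% of contigs at these stages, and in 25 to 39 of the 111.

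In the 12 contigs dominated at all 6 stages it was the same library of each stage that dominated: library 1 at A1 and A2, library 2 at B1, library 3 at B2, library 1 at C1 and library 2 at C2. At D, library 1 was the highest in all 12. Among the 28 contigs dominated at 4 or more stages, these libraries were the highest in 25 to 27 at each stage. Bot_c22759, with no homolog named, had 1897, 15.8 and 4.69 normalized counts at A1 against 5.3, 14.6 and 4.11, 790, 4.23 and 0 at A2 against 3.32, 0 and 4.97, and 786, 4.84 and 8.67 at C1 against 4.04, 116 and 19.4. The groups overlapped at all 7 stages, and at D the values of 392, 3.79 and 145 put library 3 between the other 2. Without these libraries at A2, B2 and C1, a ratio of at least 4 was found for 67 contigs at A2, 59 at B2 and 30 at C1, and the groups were separate for 72 (9.51% of all contigs), 47 (7.18%) and 42 (9.62%). Whether this reflects genotype was not tested.

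**Figure D4:**
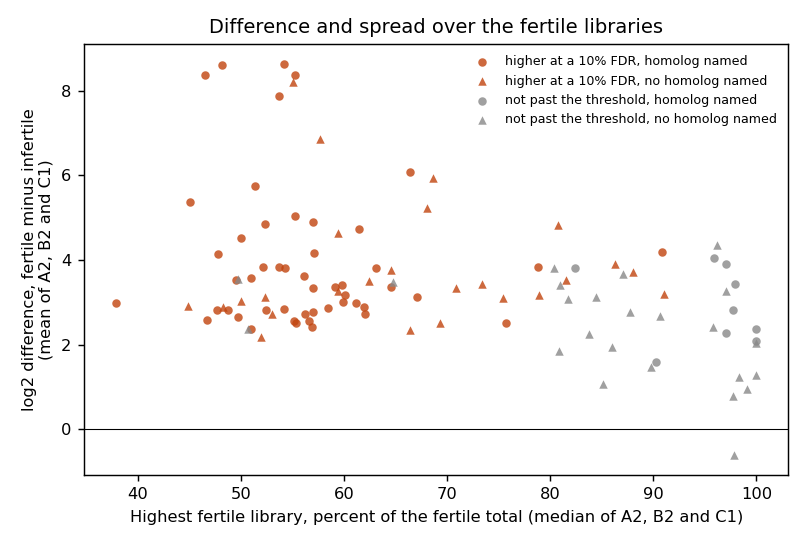
Mean log2 difference between fertile and infertile libraries over A2, B2 and C1 against the share of the fertile total in the highest fertile library (median of the 3 stages), for the 108 contigs tested. Orange points were higher at a 10% FDR in limma and gray points were not, and circles have a homolog named. Most gray points have more than 80% of the fertile reads in 1 library. The share and the calls come from the same libraries, so they are not independent.

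The contigs with the smallest differences at the tested stages were of this kind. At A2 these were Bot_rep_c37349, with 57.4, 0 and 0 normalized counts against 3.32, 5.08 and 12.4, Bot_rep_c37793, with 0, 368 and 0 against 29.9, 3.38 and 14.9, and CAP3_round1_contig_7706, with 341, 29.6 and 30 against 19.9, 33.8 and 32.3. Bot_rep_c37793 was an exception to the shared library, with its reads in library 2 at A2, B2 and C1. At B2 it had 0, 552 and 12.2 against 38.3, 189 and 20.7, and Bot_c8684 had 0, 0 and 283 against 1.66, 7.56 and 2.59. Bot_c22759 was the other of the lowest at B2, with a log2 difference of 0.58. At C1 the smallest were CCTT32057.g1, with 226, 0 and 0 against 1.35, 256 and 0, Bot_c4159, with 209, 4.84 and 0 against 2.69, 22.3 and 23.7, and Bot_c30244, with 254, 2.42 and 0 against 2.69, 34.8 and 4.3. None of these contigs has a homolog named, only CCTT32057.g1 among them is in the study's lists, and their groups overlapped at the stages given.

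The contigs with the largest shifts in the difference between stages included Bot_rep_c49193, whose difference was larger at B2 than at A2 by 4.93 on the log2 scale (limma adjusted p = 1). Bot_c3493 had 10.1, 6.35 and 205 normalized counts at A2 against 14.9, 16.9 and 2.49, but 3.33, 2742 and 2200 at B2 against 1.66, 5.67 and 0 and 695, 1529 and 21.7 at C1 against 0, 2.79 and 0. Its difference was larger at C1 than at A2 by 6.10 on the log2 scale (SE 3.02), which did not pass (limma adjusted p = 1). Bot_c34782 had 0, 9.79 and 637 at B2 against 0, 200 and 2.59 and 880, 4.84 and 113 at C1 against 0 in each infertile library. Bot_rep_c53538 had 349, 93.1 and 64.6 at A2 against 0 in each infertile library and 18.3, 2.42 and 30.3 at C1 against 25.6, 0 and 0. Bot_rep_c50991 had 105, 17.6 and 28.5 at B2 against 20, 0 and 0 and 19.7, 12.1 and 8.67 at C1 against 16.2, 20.9 and 4.3. The last 2 had lower differences at C1, and neither shift passed.

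Infertile colonies were not free of these transcripts, and the 3 infertile libraries of a stage held unequal amounts of them. As a percentage of the fertile mean, the median of 110 contigs was 18.5 in infertile library 1 of B2 and 20.2 in that of C1, and 0.6 to 10.8 in the other 19 infertile libraries. At each of the 7 stages the infertile library with the highest median was also the one with the highest sum of the 3 testis transcripts. It had the highest sum of 3 transcripts located in small oocytes at 6 stages and of 4 transcripts of maturing eggs or their follicle at 4. In infertile library 1 of B2, C1 and C2, 0 of these 10 transcripts were at 0, and in the other infertile libraries 0 to 4 were. The study also located P-selectin, zp-1 and ldlr in tissues outside the gonad, so these are not markers of gonad cells alone. Vitellogenin, counted here with eggs, was also found in follicle cells of the testes, and tetraspanin-8, counted with testis, in small oocytes. For tsk-2, counted with small oocytes, the study also reports developing testes, so the classes overlap. Among fertile libraries the highest median and the highest testis sum fell in the same library at 2 of 7 stages. The part of gonad cells in the infertile values was not tested.

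**Figure D5:**
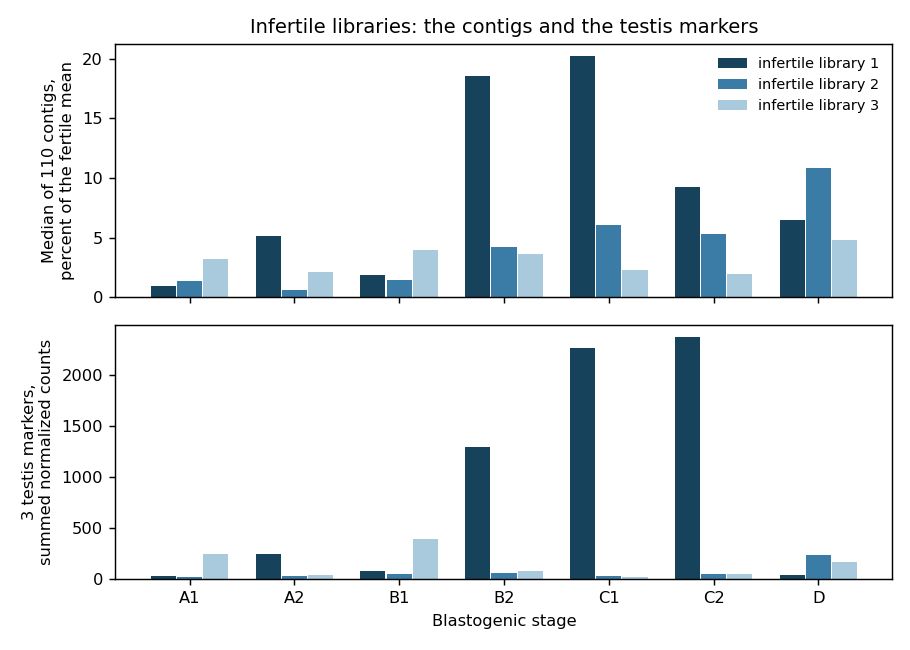
For each of the 3 infertile libraries at the 7 stages, the median over 110 contigs of the value as a percentage of the fertile mean (top) and the summed normalized counts of 3 testis markers (bottom). Library numbers are not matched between stages. The library highest in the top panel is also highest in the bottom panel at all 7 stages, with 18.5% at B2 and 20.2% at C1.

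The stage of the highest fertile mean was A1 for 55 contigs, C2 for 21, B1 for 17, D for 8, C1 for 6, B2 for 3 and A2 for 1. The lowest was at C1 for 53 and at D for 21. The highest fertile mean was a median of 5.48 times the lowest, with a range of 1.31 to 41.4, and it was under 4 times for 40 contigs. In infertile colonies the highest mean was at B2 for 44 contigs. The choice favored contigs with high fertile and low infertile means at A1, B1, C2 and D. These counts follow in part from it and were not tested.

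A set of 418 contigs also had a ratio of at least 4 at A1 and B1, but a fertile mean at C2 of 25% or less of that at B1. At A2 379 of them had a ratio of at least 4, with a median of 12.1, close to the 12.6 of the 111. At C1 the ratio was at least 4 in 43 of the 418, with a median of 2.20, as against 61 of 111 and 4.77. Their choice required a low C2 level and set no limit on the ratio at C2 or D. At these 2 stages 10 and 57 of the 418 had a ratio of at least 4. Contigs are not replicates, and the difference at C1 was not tested.

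The limits of the choice cut through a continuous range. Just inside the limit of 4 were CCAO4428.g1 with 4.002, Bot_rep_c56546 with 4.01 and Bot_rep_c35712 with 4.02, all at D. Just outside were CAP3_round1_contig_3807 with 3.97 at A1, Bot_rep_c42059 with 3.97 at D and CAP3_round1_contig_3463 with 3.95 at B1. For the level at C2 as a share of that at B1, Bot_c9439 with 0.270, Bot_c25570 with 0.272 and Bot_c722 with 0.282 were inside, and CAP3_round1_contig_973 with 0.243, Bot_rep_c36390 with 0.209 and Bot_rep_c50326 with 0.207 were outside. A limit of 3 in place of 4 would have given 222 contigs and a limit of 6 gave 38. Without fertile C2 library 2 the limits would have chosen 58 contigs and without fertile D library 1 71. Without fertile D library 3 they would have chosen 121, of which 109 are among the 111.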

How the data were processed

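RNA of 42 libraries was captured by polyA, made into libraries with the TruSeq v2 mRNA kit and sequenced as read pairs. The authors trimmed the first 12 bases, aligned the reads with Bowtie 0.12.7 to an EST assembly, obtained counts with SAMtools 0.1.18 and Sam2Counts and normalized these with DESeq 1.10.1 (versions from the submitters' processing notes, which also name CASAVA 1.8.2, FastQC and RSEM 1.2.3). How reads fitting several contigs were counted is not given in the sources used here. The deposited signal of a group at a stage is its mean of normalized counts over 3 libraries, and the authors' fold changes and p-values in the same tables were not used.

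Library values were recovered from each mean as whole read pairs, each counted as 2, from 3 step sizes per group and stage. A single solution was found for 99.7% to 99.9% of contigs, up to group means of 60000, and for 0 of 1500 decoy values per group and stage. The labels name the genotypes, but which recovered library is which was not inferred from the values.

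Contigs with a mean of at least 10 entered limma 3.58.1 (R 4.3.3) with a mean-variance trend, on log2(normalized count + 1), two-sided, with Benjamini-Hochberg adjustment over all contigs at a 10% FDR. The 18 libraries of A2, B2 and C1 were scaled together by the median of ratios and fitted with stage as a term. The fits were run on simulated counts with independent libraries and the same setting of spread for all contigs. Recurring genotypes and dominant libraries were therefore not covered. Of 67 contigs changed 4-fold, the fits of a single stage recovered 28 to 35 and the fit of 18 libraries 66. A fold against libraries all at 0 used a floor of 3 read pairs per library. Library totals limit precision through counting error, for which no intervals were computed.

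Alternatives were other pseudocounts, minimum means, scalings, voom, limma without the trend, a 5% FDR, leaving out each stage or library and, added after seeing the data, leaving out several libraries. Homologs came from the study's supplementary lists, with 10 keyword lists of functions applied to 4967 listed contigs. Named contigs are the 5 with the highest fertile means over the 7 stages, the 3 highest of each list, up to 5 called per tested stage, the 3 with the smallest difference per tested stage, 2 per contrast between stages, the 3 on each side of each limit, and others said to be chosen after their values were seen. The contigs, lists and tests were chosen with earlier results of these data known. Samples count as separate colonies or pools only as far as the labels say, so p-values measure the spread between these libraries. Analyses used Python 3.11.15, numpy 2.4.6, pandas 2.3.3, numba 0.67.0 and matplotlib 3.10.9.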

Additional observations from a re-analysis of the deposited data

How the results depend on the processing

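The count of contigs called higher over A2, B2 and C1 was 75, and 77, 75, 75, 53 and 59 with a pseudocount of 5, a pseudocount of 0.5, the authors' size factors, voom and a 5% FDR. Leaving out stage A2 gave 10 and stage B2 gave 24. Leaving out 1 library, or a named set of libraries, gave 15 to 80. The 15 were among 30 higher in the whole table, without fertile A2 library 1, B2 library 3 and C1 library 1. Without infertile library 1 of B2 and C1 there were 79 among 1522. At B2 the count of 6 became 0 with voom, 3 without the trend and 0 to 9 without 1 library. The whole table then had 0, 4 and 0 to 121 contigs higher, against 8. At A2 the count of 0 became 0 to 26, with 0 to 195 in the whole table. At C1 both counts were 0 in all settings run. The cause was not tested. Scaling by totals or upper quartiles gave 6 calls at B2, among 9 in the whole table in either case. No paired analysis was made, because the recovered libraries were not matched to the genotypes or replicate numbers of the labels. The study's lists of mapped reads for fertile and infertile samples were not used for such a match.

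The direction of some contigs with no call changed. At A2 Bot_rep_c37349 had a log2 difference of 0.031 and Bot_rep_c37793 of 0.23 with a pseudocount of 5, and at C1 Bot_c4159 had 0.27. With a pseudocount of 0.5, Bot_c30244 had -0.18 at C1. With voom at C1, Bot_c4159 had 1.67 and CCTT32057.g1 had 1.01. Over A2, B2 and C1, Bot_rep_c37793 had 0.049 with a pseudocount of 5.

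Without 1 library, the log2 difference at A2 was -0.14 to 2.26 for Bot_c3493, -1.22 to 0.11 for Bot_rep_c37349 and -1.63 to 0.57 for Bot_rep_c37793. At B2 it was -0.17 to 4.06 for Bot_c22330, -1.25 to 2.28 for Bot_c22759, -1.45 to 3.33 for Bot_c34782, -0.33 to 1.65 for Bot_c4159, -3.91 to 0.65 for Bot_rep_c37793 and -0.061 to 2.79 for CAP3_round1_contig_7706. At C1 it was -1.61 to 1.93 for Bot_c22759, -0.53 to 1.73 for Bot_c30244, -2.41 to 1.45 for Bot_c4159, -1.46 to 1.61 for Bot_rep_c37793, -0.49 to 0.53 for Bot_rep_c50991, -0.74 to 1.64 for CAP3_round1_contig_7706 and -3.08 to 1.99 for CCTT32057.g1. Over the 3 stages, without 1 library or the named sets, it was -1.06 to 1.92 for Bot_c22759, -0.022 to 1.5 for Bot_c30244, -0.014 to 1.43 for Bot_c4159, -1.57 to 0.34 for Bot_rep_c37793, -0.21 to 1.5 for CAP3_round1_contig_7706 and -0.86 to 2.21 for CCTT32057.g1. Of the named contigs called over A2, B2 and C1, settings that changed the method or left out a whole stage lost the call 54 times over all contigs and settings, and those that left out single libraries or the named sets 55 times, with no change of direction among them.

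With 3 libraries per group and fertile libraries this far apart, a contig without a call at a single stage is not shown to be equal between the groups.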
